A study of Mus musculus with 13 samples.

Results

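The 10 genes described here were *Fos*, *Fosb*, *Jun*, *Junb*, *Egr1*, *Atf3*, *Ier2*, *Nr4a1*, *Klf2* and *Klf4*, chosen by name as immediate early and flow-response genes out of 36109 genes listed. Their levels were compared between *Hmox2*-/- mice, in which the gene of heme oxygenase 2 is deleted, and their *Hmox2*+/+ littermates, all kept in room air, to see whether genes that respond within minutes to handling, stress or shear differed with genotype. Aortic ECs were represented by 3 *Hmox2*+/+ and 3 *Hmox2*-/- libraries (EC WT 1 to 3, EC KO 1 to 3) and heart tissue by 4 *Hmox2*+/+ and 3 *Hmox2*-/- libraries (heart WT 1 to 4, heart KO 1 to 3). EC RNA was released by flushing lysis reagent through the lumen of the dissected aorta, whereas heart RNA came from pulverized, frozen whole heart and a different extraction kit, so tissue and preparation cannot be told apart. The deletion was not restricted to either tissue. The paper describes the sequenced mice as young. Their exact age and sex, and whether an EC and a heart library came from the same mouse, were not given by the labels. The p-values measure only the spread between these libraries.

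Immediate early genes are transcribed within minutes of a stimulus, from transcription factors already present in the cell, and their transcripts decay quickly. Growth factors, calcium, catecholamines acting through cyclic AMP, mechanical stretch, ischemia and tissue dissociation all induce them. *Klf2* and *Klf4* encode zinc finger factors that in endothelium are kept high by steady laminar flow and that maintain an anti-inflammatory and anti-thrombotic program, while they also belong to early response genes in other cells.

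The sequences just before the transcription start are shown for the 3 genes that were downregulated in heart tissue (*Fos*, *Junb* and *Nr4a1*) and for *Klf2*, a flow-response gene that did not pass in either tissue. Promoter windows from the RefSeq table (build GRCm38.p6) were used for 8 of the 10 genes. No window was used for *Egr1*, whose chromosome was left out of the search, or for *Ier2*. The 250 bases upstream of the start lie at chr12:85473640-85473889 on the plus strand for *Fos*, chr8:84978749-84978998 on the minus strand for *Junb*, chr15:101266596-101266845 on the plus strand for *Nr4a1* and chr8:72318812-72319061 on the plus strand for *Klf2*. Each is written 5′ to 3′ in the direction of the gene, and capitals mark the letters TGACG on either strand, the core of the cyclic AMP response element, and the core promoter letters TATAAA.
Fos: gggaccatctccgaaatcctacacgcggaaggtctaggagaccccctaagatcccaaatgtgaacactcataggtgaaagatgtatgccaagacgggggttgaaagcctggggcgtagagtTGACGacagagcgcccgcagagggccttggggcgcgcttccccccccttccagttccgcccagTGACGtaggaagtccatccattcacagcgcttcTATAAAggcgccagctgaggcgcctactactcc
Junb: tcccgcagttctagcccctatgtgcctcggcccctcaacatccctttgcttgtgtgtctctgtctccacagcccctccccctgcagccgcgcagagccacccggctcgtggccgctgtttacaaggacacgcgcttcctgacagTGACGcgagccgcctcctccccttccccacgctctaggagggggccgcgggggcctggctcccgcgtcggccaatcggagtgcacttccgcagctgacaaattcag
Nr4a1: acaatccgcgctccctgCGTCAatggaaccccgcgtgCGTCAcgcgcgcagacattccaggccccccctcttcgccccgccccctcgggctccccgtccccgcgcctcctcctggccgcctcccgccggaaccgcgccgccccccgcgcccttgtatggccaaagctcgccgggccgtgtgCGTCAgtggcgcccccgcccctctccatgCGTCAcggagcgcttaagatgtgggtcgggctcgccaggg
Klf2: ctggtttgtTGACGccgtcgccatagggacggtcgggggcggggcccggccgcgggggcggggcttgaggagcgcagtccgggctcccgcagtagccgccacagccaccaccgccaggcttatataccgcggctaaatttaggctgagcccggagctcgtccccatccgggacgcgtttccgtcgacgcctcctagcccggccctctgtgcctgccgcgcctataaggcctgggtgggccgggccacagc
All motifs were searched on both strands. TGACG was present in 7 of the 8 promoters, all but that of *Jun*, against 17.8% of 32851 promoter windows of the same length. *Nr4a1* held 4 such matches, which began 233, 213, 69 and 40 bases before the start, *Fos* held 2 (129 and 66 bases before) and *Junb* 1 (106 bases before). TATAAA was found in *Fos* alone, 33 bases before the start, against 12.4% of all windows. The letters GCGGGGGCG, a sequence read by EGR factors, were found in 4 of the 8 (*Fosb*, *Nr4a1*, *Klf2* and *Klf4*) against 2.57% of windows, and the GC box GGGCGG, which GCGGGGGCG can overlap, in 7 of the 8 against 32.7%. The complete element TGACGTCA (1.55% of windows), the AP-1 site TGANTCA (6.75%) and the CArG box, the site of serum response factor (1.47%), had no match in these 8 windows, and the E-box CACGTG (6.02%) matched in *Klf4* only. A match describes letters and is not a bound site. The comparison windows were not matched for base composition, and the 4 windows with GCGGGGGCG held 68.8% to 74.4% G or C.

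As a check of the labels, *Hmox2* was lower in every *Hmox2*-/- library, at 12.6 to 14.7 CPM (counts relative to library size, scaled by TMM within tissue) against 63.9 to 76.2 in ECs, and at 7.53 to 8.90 against 37.3 to 42.5 in heart tissue. Libraries held 26067147 to 31619776 estimated counts, except heart WT 1 with 7268626. Endothelial markers were present in every EC library, all 15 above 0, but their summed level (3290 to 7016 CPM) stood beside 13269 to 19819 CPM for 10 adipocyte markers, 5767 to 11971 for 10 fibroblast markers and 1140 to 6801 for 10 smooth muscle markers, so the EC libraries were not endothelial alone. Of the EC libraries, 4 carried the Y-linked *Ddx3y* (61.7 to 86.4 CPM) and EC KO 2 (1.03) and EC KO 3 (0.920) hardly did. All heart libraries carried it, at 61.6 to 86.5 CPM in heart WT and 37.0 to 50.9 CPM in heart KO. It was thus lower in heart KO without overlap (log2 fold change -0.82, edgeR adjusted p = 0.0027). The part of this difference in the other heart values was not tested. In bulk samples, fewer cells of a type and less RNA per cell cannot be told apart.

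In the GRCm39 annotation *Fos* lies at chr12:85520658-85524047 (plus strand), *Junb* at chr8:85701113-85705359 (minus), *Nr4a1* at chr15:101151980-101172681 (plus), *Klf2* at chr8:73072726-73075502 (plus) and *Klf4* at chr4:55527139-55532528 (minus), all protein-coding. *Jun*, *Egr1*, *Ier2* and *Klf2* were counted from a single listed transcript, *Fos*-201 held a mean of 93.6% to 98.3% of the *Fos* counts of each group, and *Fosb*-201 held 82.7% to 83.5% of the *Fosb* counts in the EC groups.

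Compared per length, in TPM (abundance corrected for transcript length), all 10 genes had higher group means in ECs than in heart tissue. *Nr4a1*, a nuclear receptor induced by many stimuli, headed the list in EC WT (91.8 ± 67.4 TPM, SD, n = 3) and in heart WT (21.6 ± 3.56, n = 4). *Klf2* headed it in EC KO (86.0 ± 28 TPM, n = 3) and in heart KO (21.8 ± 2.45, n = 3). *Egr1*, *Fosb* and *Fos* took the lowest places in all 4 groups: *Fos* averaged 7.44 TPM in EC WT, 5.5 in EC KO, 3.0 in heart WT and 0.686 in heart KO. In that order of 4, only the step from heart WT to heart KO separated the libraries of neighbouring groups for *Fos*. The same last step separated *Nr4a1*, from 21.6 to 10.8 TPM, while its other neighbours overlapped. For *Jun*, *Junb*, *Egr1*, *Ier2*, *Klf2* and *Klf4* the step between the lower EC group and the higher heart group did so. The TPM of heart libraries moves with the mitochondrially encoded share of the counts, which was 37.3% to 43.9% in heart WT and 22.3% to 27.0% in heart KO, and genotypes were therefore compared in TMM-scaled CPM. *Klf2* shows the difference between the scales: its heart groups stood apart in TPM (16.7 against 21.8) and overlapped in CPM (30.5 against 32.2).

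**Figure D1:**
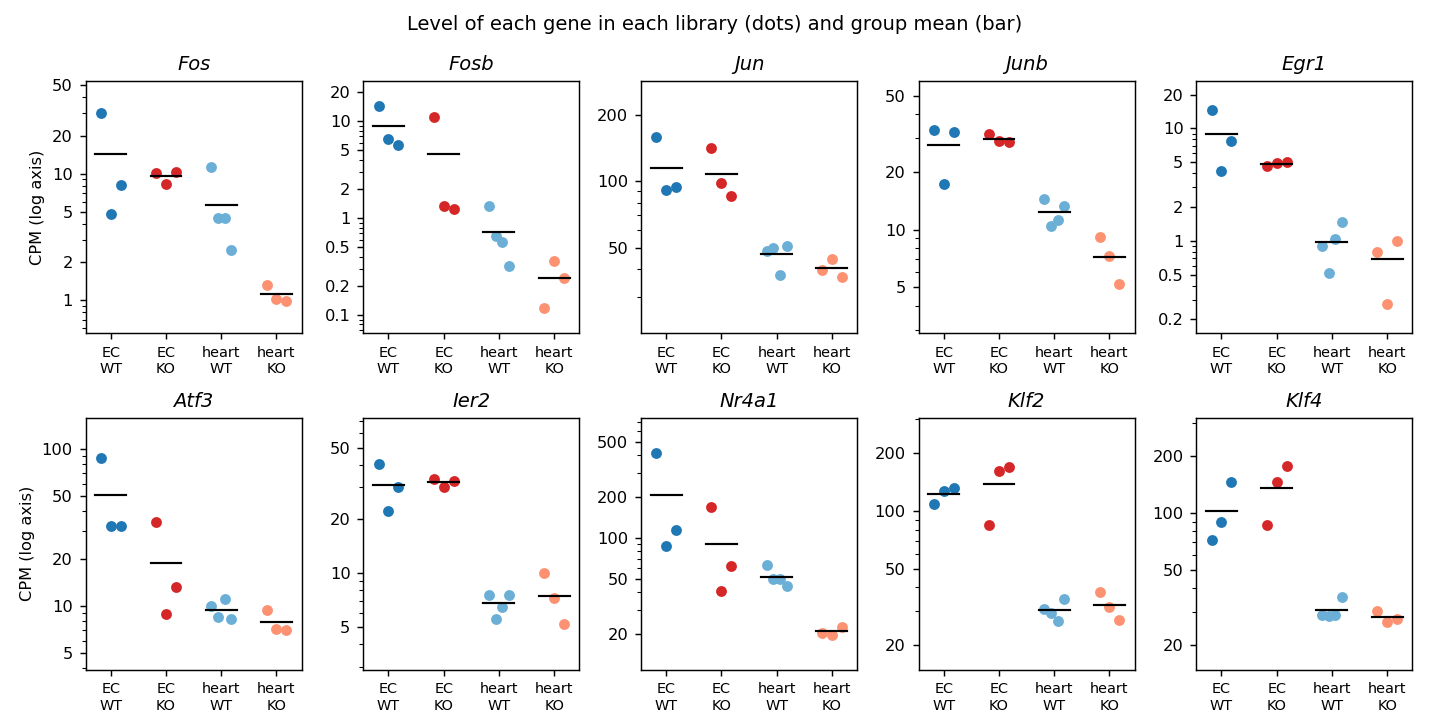
CPM on log axes of the 10 genes in each of the 13 libraries (dots, WT for Hmox2+/+ and KO for Hmox2-/-), with the group mean as a bar. In heart tissue the KO dots of Fos, Junb and Nr4a1 lie below all WT dots, whereas in ECs the genotypes overlap for all 10 genes.

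In heart tissue, *Nr4a1*, *Fos* and *Junb* fell in *Hmox2*-/- mice, and the other 7 genes did not pass the test (edgeR quasi-likelihood, Benjamini-Hochberg adjusted p of at most 0.05 over 13816 genes). Passing with a lower level was common in this comparison, at 16.2% of all genes (33.4% in either direction). Thus 3 of 10 were lower and 0 of 10 higher, and the median log2 fold change of the 10 genes was -0.40 against -0.01 for all genes tested. For these 3 genes every *Hmox2*-/- library lay below every *Hmox2*+/+ library, as it did for 19.8% of all genes (40.4% without overlap in either direction). *Fos* and *Nr4a1* also met the study's further size criterion, a log2 fold change of 1 or more in either direction, met by 6.71% of all genes.

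*Nr4a1* was 63.3, 50.5, 50.3 and 44.2 CPM in heart WT 1 to 4 and 20.2, 19.6 and 22.5 CPM in heart KO 1 to 3. The lowest WT library was above the highest KO library by a wide margin, and both groups were tight. The difference was 2.49-fold (log2 fold change -1.32 ± 0.13 SE, edgeR adjusted p = 5.4e-05), and the exact two-sided permutation test gave p = 0.0286, the smallest that 4 against 3 libraries allow. *Nr4a1* did not pass in edgeR when EC and heart libraries shared 1 fit and 1 estimate of the spread (log2 fold change -1.32, adjusted p = 0.0764).

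*Fos*, which pairs with JUN proteins to form the AP-1 factor, was 11.3, 4.43, 4.42 and 2.48 CPM in heart WT and 1.32, 1.03 and 0.987 CPM in heart KO. The WT libraries spread over a wide range, with the shallow heart WT 1 highest, and the KO libraries lay together, at 33 to 45 counts each. The fold was the largest of the 10 genes (log2 fold change -2.21 ± 0.44 SE, edgeR adjusted p = 0.0040). The exact permutation p was 0.0571, and without heart WT 1 the log2 fold change was -1.76 (adjusted p = 0.0031).

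*Junb*, an AP-1 subunit that often opposes JUN, was 14.4, 10.5, 11.2 and 13.2 CPM in heart WT and 9.11, 7.26 and 5.18 CPM in heart KO. All 3 KO libraries were below the lowest WT library, by a smaller margin than for *Nr4a1*. Its log2 fold change was -0.76 ± 0.19 SE (edgeR adjusted p = 0.0118, exact permutation p = 0.0286). *Junb* shares 6.51% of its 31-base words with *Prdx2*, which overlaps it on the opposite strand, so a part of its counts is uncertain.

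The remaining AP-1 and stress members had lower estimates in heart KO without passing. *Fosb* was 1.34, 0.658, 0.571 and 0.319 CPM in heart WT and 0.118, 0.363 and 0.239 CPM in heart KO, each from 4 to 19 counts, with overlapping groups (log2 fold change -1.37 ± 0.55 SE, edgeR adjusted p = 0.0779). *Jun* was 37.4 to 51.0 CPM against 36.9 to 44.3 (log2 fold change -0.21, 95% CI -0.48 to 0.06). *Atf3*, a stress-induced repressor of the ATF/CREB family, was 8.28 to 11.1 CPM against 7.06 to 9.46 (-0.26, 95% CI -0.61 to 0.09). *Egr1*, a zinc finger factor induced through serum response factor, was 0.519 to 1.49 CPM in heart WT and 0.272 to 0.987 CPM in heart KO, from 5.95 to 41.6 counts (-0.53, 95% CI -1.56 to 0.49). *Ier2* had an estimate on the other side, at 5.54 to 7.58 CPM in heart WT and 5.21 to 9.99 in heart KO (0.16, 95% CI -0.30 to 0.62).

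Neither flow-response gene passed in heart tissue. *Klf2* was 30.8, 29.4, 26.8 and 34.9 CPM in heart WT and 38.1, 31.6 and 27.0 CPM in heart KO. *Klf4* was 28.7, 28.4, 28.7 and 35.9 CPM in heart WT and 30.1, 26.5 and 27.3 CPM in heart KO. The groups of both genes overlapped, and the 95% CI of the log2 fold change ran from -0.21 to 0.37 for *Klf2* and from -0.37 to 0.12 for *Klf4*.

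**Figure D2:**
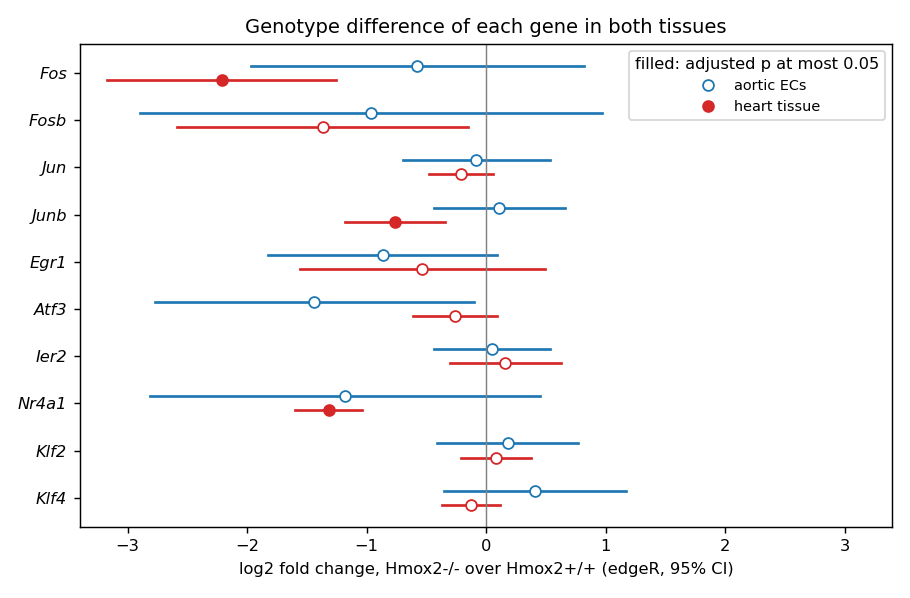
log2 fold change of each gene (x axis, Hmox2-/- over Hmox2+/+) with its 95% CI, in ECs (blue) and heart tissue (red), with filled dots for genes that passed. Fos at -2.21, Nr4a1 at -1.32 and Junb at -0.76 in heart tissue are the filled dots, and the EC intervals of Fos, Fosb, Atf3 and Nr4a1 are wider than those of Klf2 and Ier2.

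In aortic ECs, 0 of the 10 genes passed in edgeR, where 18.1% of 15301 genes did, and 1 of 10 (*Atf3*) had an unadjusted p under 0.05, as did 35.3% of all genes. DESeq2 also passed 0 of 10. With all libraries in 1 fit *Atf3* passed. A fit with a replicate block called *Fosb*, *Atf3* and *Nr4a1*, although no label pairs same-numbered libraries. No gene had genotypes that did not overlap, compared with 40.7% of all genes. The estimates of 6 genes were lower in *Hmox2*-/- libraries and those of 4 were higher, with a median log2 fold change of -0.33 against -0.02 for all genes. With 3 against 3 libraries the exact permutation test cannot go below 0.1.

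The spread within each genotype was large for the stimulus-induced genes. *Nr4a1* was 419, 87.6 and 113 CPM in EC WT 1 to 3 and 169, 41.3 and 62.9 CPM in EC KO 1 to 3. *Atf3* was 88.0, 32.5 and 32.1 CPM in EC WT and 34.1, 8.93 and 13.2 CPM in EC KO. *Fosb* was 14.4, 6.62 and 5.62 CPM in EC WT and 11.1, 1.34 and 1.25 CPM in EC KO. For all 3 genes, EC WT 1 was the highest library, EC KO 1 was the highest of its genotype, and EC KO 2 and EC KO 3 were the lowest of the 6. The log2 fold changes were -1.18 ± 0.70 SE for *Nr4a1* (edgeR adjusted p = 0.265), -1.44 ± 0.57 for *Atf3* (adjusted p = 0.119) and -0.96 ± 0.83 for *Fosb* (adjusted p = 0.441). Without EC WT 1 that of *Nr4a1* was -0.14 and that of *Atf3* -0.78, while without EC KO 1 *Fosb* (-2.77, adjusted p = 0.0267) and *Atf3* (-2.20, adjusted p = 0.0486) passed. Leaving out EC KO 1 kept only EC KO 2 and EC KO 3, which hardly carried *Ddx3y*, so genotype and *Ddx3y* status cannot be told apart there.

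*Fos* was 30.0, 4.78 and 8.10 CPM in EC WT and 10.2, 8.28 and 10.2 CPM in EC KO. *Egr1* was 14.7, 4.18 and 7.73 CPM in EC WT and 4.64, 4.90 and 5.04 CPM in EC KO. Here too EC WT 1 was highest, and the KO libraries lay within the range of the WT libraries. Without EC WT 1 the log2 fold change of *Fos* turned from -0.57 to 0.57 (edgeR adjusted p = 0.208), and without EC WT 2, the lowest library of both genes, *Egr1* passed (-1.21, adjusted p = 0.0457). *Jun* (85.4 to 158 CPM over the 6 libraries), *Junb* (17.2 to 33.2 CPM) and *Ier2* (22.1 to 40.7 CPM) had log2 fold changes of -0.08, 0.11 and 0.05, with 95% CIs that reached no further than -0.70 and 0.66.

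*Klf2* was 109, 126 and 132 CPM in EC WT and 84.4, 162 and 170.1 CPM in EC KO. *Klf4* was 72.0, 89.9 and 146 CPM in EC WT and 85.9, 145 and 178 CPM in EC KO. EC KO 2 and EC KO 3, lowest in *Nr4a1*, *Atf3* and *Fosb*, were the 2 highest libraries of *Klf2*, and EC KO 1 was the lowest. The log2 fold changes were 0.18 (95% CI -0.41 to 0.77) for *Klf2* and 0.41 (95% CI -0.35 to 1.17) for *Klf4*.

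Summed smooth muscle markers and *Ddx3y* also differed between the EC libraries. The 10 smooth muscle markers summed to 6801, 3498 and 5371 CPM in EC WT 1 to 3 and to 3762, 1231 and 1140 CPM in EC KO 1 to 3, so the libraries with the highest *Nr4a1*, *Atf3* and *Fosb* of each genotype also had the highest smooth muscle sum. The 15 endothelial markers summed to 3290, 3553 and 4785 CPM and to 5774, 7016 and 6546 CPM, lowest in EC WT 1, where *Klf4* was also lowest. EC KO 2 and EC KO 3 were the libraries with *Ddx3y* near 1 CPM. A fit with *Ddx3y* status as a term leaves EC KO 1 as the only *Hmox2*-/- library set against the 3 *Hmox2*+/+ libraries, so that *Ddx3y* status and genotype cannot be told apart for the other 2. The part of cell composition in these differences was not tested.

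**Figure D3:**
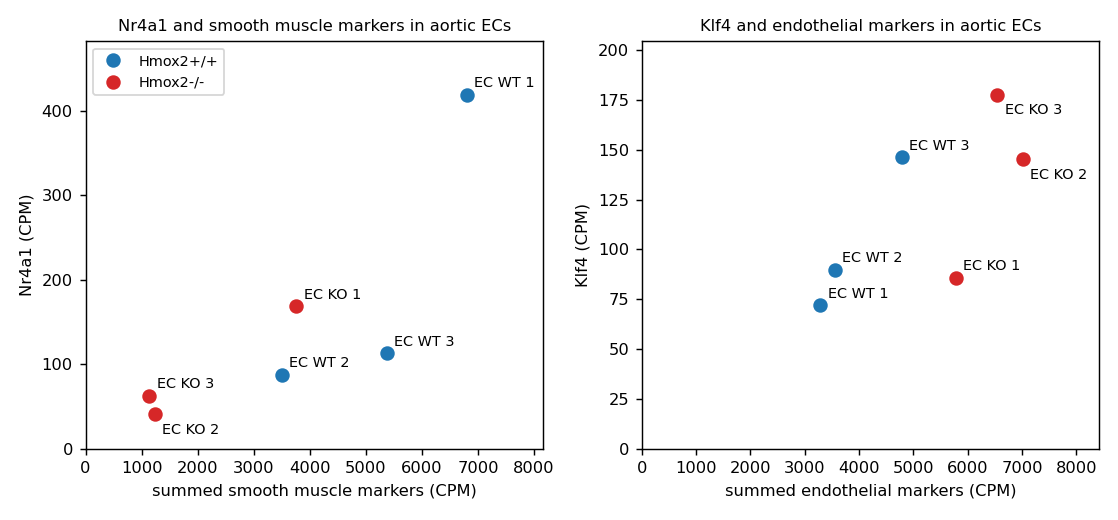
Nr4a1 against summed smooth muscle markers (left) and Klf4 against summed endothelial markers (right), both in CPM, in the 6 EC libraries (blue for Hmox2+/+, red for Hmox2-/-). Nr4a1 ran from 41.3 CPM in EC KO 2 to 419 CPM in EC WT 1, the library with the highest smooth muscle sum, and Klf4 was lowest, at 72.0 CPM, in the library with the lowest endothelial sum.

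Whether the genotype difference itself differed between tissues was tested by the interaction in a fit of all 13 libraries, in which 28.8% of 15938 genes passed and 0 of the 10 did (edgeR, 1 of 10 at an unadjusted p under 0.05, against 40.9% of all genes). DESeq2 passed 0 of the 10 as well. Upper-quartile scaling and the length and GC offset each called *Junb*, and a replicate block called *Fos*, *Junb* and *Atf3*. *Junb* came closest, with a heart minus EC difference of -0.84 on the log2 scale (95% CI -1.52 to -0.15, edgeR adjusted p = 0.0639). *Fos* differed by -1.61 (95% CI -3.36 to 0.14) and *Nr4a1* by -0.10 (95% CI -1.64 to 1.43). The downregulation of *Fos*, *Junb* and *Nr4a1* was therefore not shown to be particular to heart tissue.

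Across the 13 libraries, levels of the 8 immediate early genes were positively correlated. On log2(CPM + 0.5) centred on the mean of each tissue, all 28 pairs among the 8 immediate early genes had a positive Pearson r, with 0.88 for *Fosb* and *Atf3*, 0.86 for *Fosb* and *Nr4a1*, 0.78 for *Fos* and *Nr4a1* and 0.77 for *Fos* and *Junb*. *Klf2* and *Klf4* had r = 0.76 with each other and a negative r in 13 of 16 pairs with the immediate early genes, the lowest being -0.80 for *Klf4* and *Fosb*. The points share genotype and tissue composition, so these values describe the libraries. The mean of the 10 centred genes was highest in EC WT 1 (0.81) and heart WT 1 (0.47) and lowest in EC KO 2 (-0.45) and heart KO 3 (-0.40), and was below 0 in all 3 heart KO and above 0 in all 4 heart WT libraries.

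**Figure D4:**
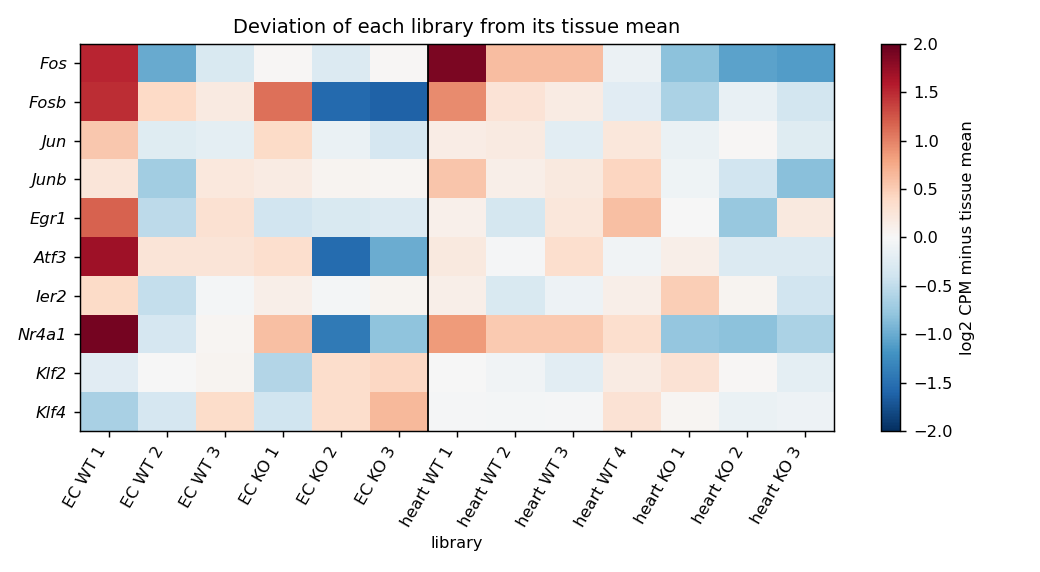
Log2(CPM + 0.5) of each gene (rows) in each library (columns) minus the mean of its tissue, on a color scale limited at -2 and 2 (red above, blue below). EC WT 1 and heart WT 1 are red for most immediate early genes, with Nr4a1 most intense in EC WT 1 and Fos in heart WT 1, while Klf2 and Klf4 are blue in EC WT 1 and red in EC KO 2 and EC KO 3.

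Among 13351 genes tested in both tissues, those most like the mean of the 10 genes included *Sel1l3* (r = 0.96), *Lbh* (0.92), *Fosl2*, an AP-1 subunit (0.91), *Rab20* (0.91), *Ebf1* (0.91), *Btg2*, an antiproliferative early gene (0.90), *Pi15*, *Fzd5* and *Fbxo30* (each 0.90). Of the 10 nearest genes, 2 belonged to a list of other immediate early genes, of which 60 were among the 13351. The nearest gene was *Rrad* for *Fosb* (0.95), *Rgs5*, a pericyte and smooth muscle gene, for *Atf3* (0.96), *Cecr2* for *Nr4a1* (0.95), *Hes1*, a Notch target, for *Junb* (0.97), *Arhgap29* for *Fos* (0.92), *Map2k1* for *Jun* (0.90), *Tmem65* for *Egr1* (0.84), *Vps45* for *Ier2* (0.88), *Atp1b1* for *Klf2* (0.82) and *Rasip1*, an endothelial gene, for *Klf4* (0.89).

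Of 60 other immediate early genes tested in heart tissue, 17 fell and 4 rose in *Hmox2*-/- mice, beside 16.2% and 17.2% of all genes, with a median log2 fold change of -0.16. Without heart WT 1, 12 of 59 were lower and 3 higher. With an offset for transcript length and GC content 15 were lower and 2 higher, and DESeq2 passed 19 as lower and 4 as higher. Among the 17 lower ones were *Arc* (-1.93, edgeR adjusted p = 0.0362), *Ptgs2*, the inducible cyclooxygenase (-1.27, adjusted p = 0.0319), *Sik1*, a kinase induced by cyclic AMP (-1.19, adjusted p = 0.00042), *Btg2* (-1.15, adjusted p = 0.0052) and *Fosl2* (-1.04, adjusted p = 0.00045). For *Arc* the genotypes overlapped, at 1.83 to 13.7 CPM in heart WT and 1.47 to 2.45 CPM in heart KO. *Nfil3* (0.91) and *Gadd45g* (0.68) were the most upregulated. Both relatives of *Nr4a1*, named after their values were seen, had estimates of the same sign, *Nr4a3* falling by 1.09 (adjusted p = 0.0027) and *Nr4a2* standing at -1.03 (adjusted p = 0.0661). In ECs, 5 of 63 were lower (8.06% of all genes) and 1 higher (10% of all genes), with a median of -0.33, among them *Cebpb* (-1.33), *Tob2* (-1.31), *Myc* (-1.09), *Csrnp1* (-1.05) and the upregulated *Klf10* (0.64), and without EC WT 1 the count was 3 lower and 1 higher. DESeq2 passed 11 of the 63 as lower and 1 as higher.

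Of 41 kinases and factors that carry signals to the immediate early genes, 12 fell and 3 rose in heart tissue (median -0.14), beside 16.2% and 17.2% of all genes. These heart counts became 8 lower and 2 higher with the length and GC offset (median -0.067), and 11 lower and 2 higher without heart WT 1. *Elk4*, a partner of serum response factor (-0.83), *Map3k2* (-0.75), *Braf* (-0.64) and *Mef2a* (-0.61) fell, whereas *Elk3* rose (0.38). In ECs 7 of 41 were lower and 1 higher (median -0.10), beside 8.06% and 10% of all genes, with *Srf* itself at -1.01 and *Prkaca*, the catalytic subunit of protein kinase A, at -0.99. These EC counts became 1 lower and 1 higher without EC WT 1, and 4 lower and 5 higher with an offset for transcript length and GC content. Core clock genes and clock outputs, some of which are themselves early genes, changed in heart tissue in 16 of 18 cases, 12 lower and 4 higher (median -0.79). *Ciart* (-2.26), *Per3* (-1.68) and *Dbp* (-1.66) fell and *Bmal1* rose (1.58). In ECs 0 of 18 clock genes passed in edgeR (2 at an unadjusted p under 0.05, and 2 passed in DESeq2). The hour at which mice were killed was not given, and the part of time of day in the heart values of *Fos*, *Junb* and *Nr4a1* was not tested.

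Of 29 heat shock and stress genes, 10 rose and 3 fell in heart tissue (median 0.23), beside 17.2% and 16.2% of all genes, and 7 rose and 1 fell with the length and GC offset. *Hspa8*, a constitutive chaperone (1.55), *Cdkn1a*, a cell cycle inhibitor (1.5), and *Mt2*, a metallothionein (1.31), rose, and *Hspa5*, the chaperone of the endoplasmic reticulum, fell (-0.55). In ECs 3 of 29 were higher and 3 lower (median -0.24), shares near those of all genes (10% and 8.06%), among them *Hspa8* (0.90) and the near-identical pair *Hspa1a* (-1.40) and *Hspa1b* (-1.45), whose reads cannot be assigned with certainty to either copy. Without EC WT 1, 1 was higher and 1 lower.

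Of 37 targets of laminar flow and of KLF2 and KLF4, 10 rose and 2 fell in ECs (median 0.45), beside 10% and 8.06% of all genes, where neither *Klf2* nor *Klf4* passed, with *Tbxas1* (1.39), *Cyp1b1* (1.24), *Ptgs1* (1.11) and *Gja5*, a gap junction protein of arterial endothelium (1.00), above and *Ptgds* (-2.98) and *Aqp1*, a water channel (-1.54), below. *Nos3*, the endothelial nitric oxide synthase, named after its value was seen, rose by 0.92. The 15 endothelial markers had a median of 0.70 in the same comparison, 7 higher and 1 lower, and their part in the flow targets was not tested. Without EC WT 1 the counts were 6 higher and 2 lower for flow targets and 2 higher and 0 lower for the markers. In heart tissue 13 of 37 flow targets were higher and 1 lower (median 0.26, beside 17.2% and 16.2% of all genes), *Hmox1* (2.0), *Ptgds* (1.72) and *Ass1* (0.96) above and *Smad7* (-0.53) below, beside endothelial markers with 4 of 15 higher, 1 lower and a median of 0.14. *Hmox1* encodes heme oxygenase 1, of the same enzyme family as the deleted gene. Red cell genes rose in the same comparison (all 5 tested, median 1.98), and whether the rise of *Hmox1* belongs to flow was not tested. *Thbd*, the anticoagulant receptor thrombomodulin, named after its value was seen, rose by 0.51.

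Of 30 genes of disturbed flow and endothelial inflammation, 9 rose and 1 fell in ECs (median 0.35, and 3 against 1 without EC WT 1), with *Ccl2* (1.81) and *F3*, tissue factor (1.21), higher and *Ankrd1*, a YAP target (-2.41), lower. The shares of all genes were 10% and 8.06%, and DESeq2 passed 12 as higher and 4 as lower. In the same comparison 5 of 10 macrophage markers rose (median 0.67). Their sums were 495 to 656 CPM in EC WT and 861 to 1346 CPM in EC KO. Of 10 fibroblast markers 3 rose (median 0.44). The part of both marker lists in the inflammation genes was not tested. *Ankrd1* itself was 798 to 1231 CPM in heart WT and at most 9.39 CPM in EC WT. Cardiomyocyte markers fell in the EC comparison, 11 of 12 (median -4.34), and their part in the fall of *Ankrd1* was not tested. In heart tissue 5 of the 29 inflammation genes tested were higher and 5 lower (median -0.06). These counts were close to the shares of all genes (17.2% and 16.2%). *Timp1* (1.74), *Icam1* (0.93) and *Vcam1* (0.71) rose, and *Mmp9* fell (-1.56). In ECs *Vcam1* also rose (0.71, edgeR adjusted p = 0.0375), whereas *Timp1* (1.10), *Icam1* (0.65) and *Mmp9* (-0.15) did not pass. By qPCR, the paper found no increase of *Icam1* or *Vcam1* in ECs. Flow sensors were 4 higher and 1 lower of 25 in ECs (median 0.17), with *Tie1* (1.01) and *Pecam1* (0.86) above and *Kdr*, a VEGF receptor (-0.58), below, and 2 higher and 0 lower without EC WT 1. DESeq2 passed 7 as higher and 1 as lower. Beside them stood 10% and 8.06% of all genes and the endothelial markers, 7 of 15 higher with a median of 0.70, whose part was not tested. *Tie1*, *Pecam1* and *Kdr* are themselves among these 15 markers, so the lists share genes and are not separate observations. In heart tissue flow sensors were 3 higher and 5 lower of 25 (median -0.10), near the shares of all genes, 3 and 3 without heart WT 1, and 4 higher and 1 lower with the length and GC offset (median 0.0051), with *Piezo1*, a stretch-gated channel (-0.51), and *Itgav* (-0.61) among the lower ones.

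**Figure D5:**
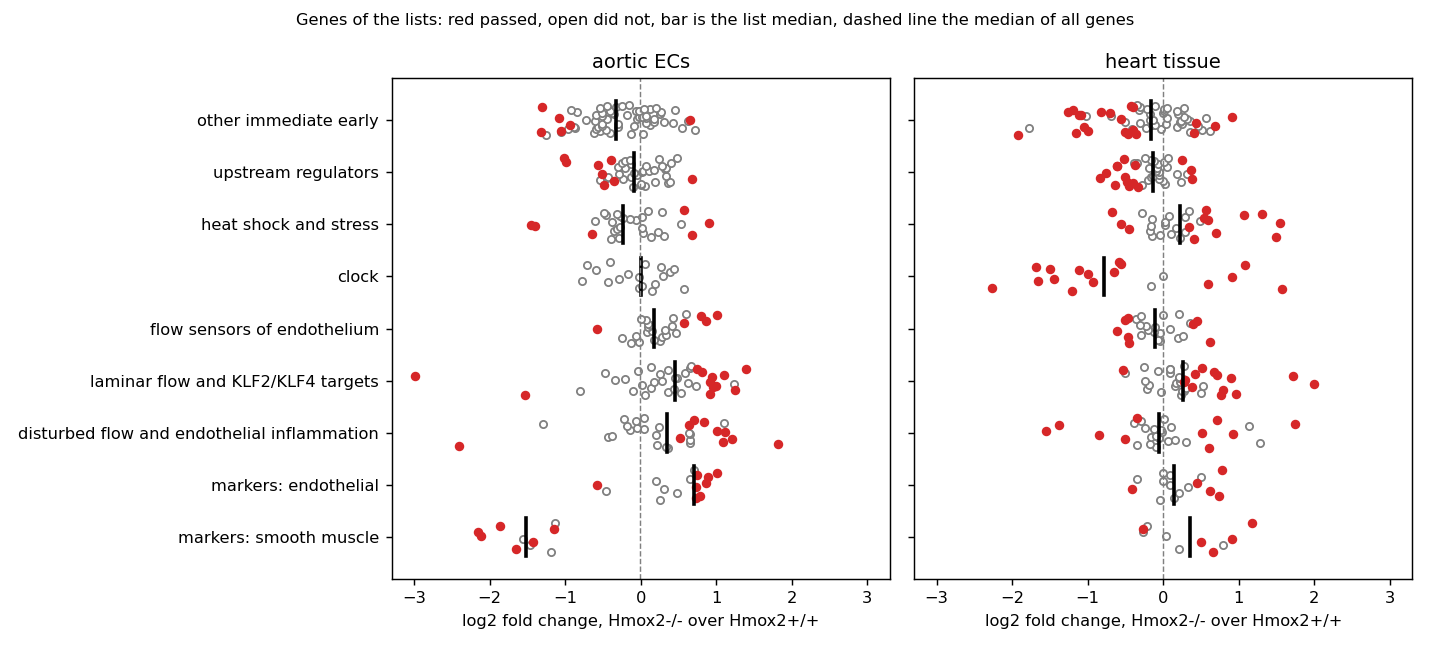
log2 fold change (x axis, Hmox2-/- over Hmox2+/+) of every tested gene of 9 lists (rows) in ECs and heart tissue, red where the gene passed and open where it did not, with the list median as a bar and the median of all genes as a dashed line. In heart tissue the clock list sits at a median of -0.79 and the laminar flow list at 0.26, and in ECs the smooth muscle markers sit at -1.52 and the endothelial markers at 0.70.

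Cell type markers also moved with genotype. In ECs 6 of 10 smooth muscle markers were lower (median -1.52, and 2 of 10 without EC WT 1), beside 8.06% of all genes. Cardiomyocyte markers were lower in 11 of 12 cases (median -4.34), with sums of 159 to 570 CPM in EC WT and 17.4 to 17.9 CPM in EC KO. In heart tissue all 5 tested red cell genes were higher (median 1.98), with summed levels of 183 to 341 CPM in WT and 888 to 1457 CPM in KO, and 5 of 10 macrophage markers were higher (157 to 229 against 252 to 423 CPM). Of all genes, 17.2% were higher in this comparison. Smooth muscle sums in heart tissue were 1640 to 1869 CPM in WT and 2024 to 2548 CPM in KO, and their part in the values of *Fos*, *Junb* and *Nr4a1* was not tested. Summed cardiomyocyte markers overlapped, at 53275 to 57528 CPM in WT and 53656 to 58860 CPM in KO. Singly, 4 of these 12 markers were higher and 3 lower, beside 17.2% and 16.2% of all genes. Summed endothelial markers did not overlap, at 582 to 684 CPM in heart WT and 736 to 785 CPM in heart KO, and their part was not tested.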

How the data were processed

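RNA of 6 aortic EC and 7 heart libraries was sequenced by the authors as 100-base read pairs and quantified with kallisto 0.44.0 (version per the labels' processing notes); the methods name GENCODE M32. The deposited files give estimated counts and TPM per transcript, both made by the authors with kallisto. The other deposited columns hold transcript lengths. From these, 115140 of 118489 transcripts were matched by identifier to GENCODE M39 and summed per gene; unmatched ones held 0.755% to 1.01% of the counts. Estimated counts were rounded, filtered (filterByExpr, minimum count 10), scaled by TMM and tested within tissue with edgeR 4.0.16 in R 4.3.3 (quasi-likelihood, Benjamini-Hochberg over all genes). Alternatives included DESeq2 1.42.0, other scaling, no filter, a GC and length offset, a replicate block and leaving out each library. List counts under DESeq2, the offset and without EC WT 1 or heart WT 1 were added after the data were seen. The fits were tested on simulated counts first. Intervals are 95% confidence intervals.

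The 10 genes, the lists and the tests were chosen with earlier results of these data known. In each list the 4 genes per tissue and direction with the largest passing change could be named. Some genes that met a naming rule are not reported here. Same-numbered libraries had residual correlations of 0.18, 0.04 and 0.09 in ECs and -0.03, 0.08 and 0.04 in heart tissue, so the numbers were not used to pair them. Promoter sequences are from RefSeq (GRCm38.p6), a different build from the gene models, and were matched by symbol.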

Additional observations from a re-analysis of the deposited data

Results flagged for a closer look

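*Klf4* in heart WT was flagged because 1 library stood far from the other 3: heart WT 4 was at 35.9 CPM and the others at 28.4 to 28.7 CPM. Its gap to the nearest library was 0.957 of the range of the group, above Dixon's 95% critical value for 4 libraries. Of 10 genes tested in this group, 1 was flagged, and chance flags about 1 in 20. *Klf4* did not pass in heart tissue with or without heart WT 4.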

How the results depend on the processing

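*Fos*, *Junb* and *Nr4a1* in heart tissue kept their direction under every alternative run and passed in each, except that *Nr4a1* did not pass when all libraries shared 1 fit (adjusted p = 0.0764); 2 of the 10 genes passed there, and 4 with a length and GC offset, which added *Atf3*. Requiring a log2 fold change of at least 1 left 1420 of 2766 genes in ECs, 927 of 4618 in heart tissue and 2456 of 4596 for the interaction. With all libraries in 1 fit, 4319 EC genes and 1 of the 10 genes (*Atf3*) passed. *Ddx3y* status as a term leaves EC KO 1 alone to represent *Hmox2*-/- ECs, assumed to vary like the other libraries, so fewer calls and estimates set by that library follow from its construction: 208 EC genes and 2074 interaction genes passed; in heart tissue this term could not be fitted, since no heart library was below 10 CPM. In ECs *Jun* (0.30), *Fosb* (0.32), *Klf2* (-0.54), *Klf4* (-0.26) and *Ddx3y* itself (0.42), from which the term is defined, then took the sign of EC KO 1 against *Hmox2*+/+. *Jun* also reversed with the offset (0.095), and in heart tissue *Ier2* (-0.11) and *Klf2* (-0.10) did. The cause of the other changes was not tested.

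The numbers did not pair the libraries; a fit with a replicate block called 3 of the 10 genes in ECs (*Fosb*, *Atf3* and *Nr4a1*), 2899 genes in heart tissue and 3 of the 10 for the interaction (*Fos*, *Junb* and *Atf3*). The replicate block with the offset called 3 of the 10 in ECs, 4 for the interaction, 2168 heart genes and 2787 interaction genes, and *Jun* in ECs (0.11), *Ier2* in heart (-0.12) and *Klf2* in heart (-0.077) reversed. EC WT 2 correlated best with EC KO 3, not with its own number. For the interaction, upper-quartile scaling and the offset each called 1 of the 10 (*Junb*).

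Leaving out 1 library at a time gave 638 to 3596 EC genes, 2888 to 5686 heart genes, 0 to 2 of the 10 genes in ECs and 0 to 2 for the interaction. EC log2 fold changes that reversed then ranged from -0.99 to 0.57 for *Fos*, -0.31 to 0.22 for *Jun*, -0.14 to 0.26 for *Junb* and -0.15 to 0.29 for *Ier2*, with *Jun* at 0.075 without EC KO 3. In heart tissue *Ier2* ranged from -0.10 to 0.37 and *Klf2* from -0.056 to 0.20, and the interaction of *Nr4a1* from -1.13 to 0.71. Ranking by Spearman's rho shared 5 of the 10 genes most like the mean. Low counts limit *Fosb* and *Egr1* in heart tissue.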
